A study of Drosophila melanogaster with 3 samples.

Results

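Sox100B-GFP peaks that lie far from any protein-coding gene start numbered 637, beside 5046 others, in the authors' list of regions ranked alike in replicates. They made up 11.2% of that list (exact 95% interval 10.4 to 12.1, which covers the counting of regions only). They were chosen by position alone: the summit, the base of highest enrichment, lay over 10 kb from every transcription start of a protein-coding gene, outside exons, and neither in a non-coding RNA gene nor within 1 kb of its start. Of the 740 summits over 10 kb from every coding start, 5 lay in an exon and 98 at a non-coding RNA gene, which leaves the 637 described here as far distal peaks. The list they come from is called the IDR list, after the irreproducible discovery rate with which the authors made it. The data come from ChIP-seq, the sequencing of DNA that co-precipitates with a protein, on 3 biological replicates of 1 group of Drosophila melanogaster embryos, with no second condition. All embryos were from a transgenic line whose Sox100B has GFP fused to its C terminus, were whole and of both sexes pooled, and were collected 6 to 16 h into development per the source label. In free text each sample is called an input control, but the antibody field names Sox100B and the assay is a factor ChIP, and they were taken as immunoprecipitates. No list from a control, a mock or an untagged line was analysed here, so how much of any value depends on Sox100B was not tested. How many reads lie behind each region is unknown.

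Sox100B is a group E Sox factor, the group of vertebrate Sox9, and binds DNA through an HMG box that bends the helix. In the fly embryo it is known from the somatic cells of the male gonad and from the gut and Malpighian tubules. Peaks far from gene starts are often read as candidate enhancers, stretches of open chromatin where many factors meet and which can act on a start many kilobases away. In a compact genome such as that of Drosophila, sequence this far from a start lies mainly in long introns and in the gene deserts around developmental regulators. Because whole embryos were used, a strong signal in few cells and a weak signal in many cannot be told apart.

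The strongest far distal peaks are shown first by their sequence, because they carry the signal that recurred in every replicate and because they differ in base content and in the sites they hold. The windows are 201 bp, centred on the summit, on the plus strand of dm6, read from the RefSeq release 6 sequence. Capitals mark matches on either strand to the Sox core (ACAAAG or ACAATG), to the GATA site (AGATAA or AGATAG or TGATAA or TGATAG) or to the GAGA site (GAGAG). The peak upstream of chinmo is rank 15 of the IDR list, with its window at chr2L:1638685-1638885. The next 4 lie on 3L, at chr3L:10752654-10752854 (rank 59), chr3L:10678667-10678867 (rank 112, in an intron of simj), chr3L:10739882-10740082 (rank 185) and chr3L:10738819-10739019 (rank 233). The last, at chr3R:16253544-16253744, is rank 379 and lies in an intron of tara. These are 6 of the 9 strongest far distal peaks.
chinmo, rank 15: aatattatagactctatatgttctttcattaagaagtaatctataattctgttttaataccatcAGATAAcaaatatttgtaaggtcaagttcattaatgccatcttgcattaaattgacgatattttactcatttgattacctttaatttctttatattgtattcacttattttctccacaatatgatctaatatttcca
CG43245, rank 59: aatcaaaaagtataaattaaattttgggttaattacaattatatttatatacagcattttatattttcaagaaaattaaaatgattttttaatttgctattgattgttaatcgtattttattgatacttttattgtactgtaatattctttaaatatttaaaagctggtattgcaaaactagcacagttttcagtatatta
simj, rank 112: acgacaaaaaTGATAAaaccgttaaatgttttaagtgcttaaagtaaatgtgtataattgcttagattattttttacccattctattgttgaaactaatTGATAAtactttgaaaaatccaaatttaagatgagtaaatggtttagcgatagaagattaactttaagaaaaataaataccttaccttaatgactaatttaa
CG43245, rank 185: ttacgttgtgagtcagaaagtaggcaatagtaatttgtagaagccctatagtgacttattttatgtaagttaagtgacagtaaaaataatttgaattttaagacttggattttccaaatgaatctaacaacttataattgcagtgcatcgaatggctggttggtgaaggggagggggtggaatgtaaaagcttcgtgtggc
CG43245, rank 233: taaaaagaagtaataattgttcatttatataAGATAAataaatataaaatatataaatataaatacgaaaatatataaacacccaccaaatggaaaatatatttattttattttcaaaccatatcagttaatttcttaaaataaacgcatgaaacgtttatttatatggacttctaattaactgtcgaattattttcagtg
tara, rank 379: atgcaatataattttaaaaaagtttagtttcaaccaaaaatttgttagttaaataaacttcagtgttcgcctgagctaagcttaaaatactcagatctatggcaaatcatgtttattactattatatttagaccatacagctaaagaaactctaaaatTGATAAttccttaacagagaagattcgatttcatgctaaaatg
None of the 6 windows held a Sox core, 4 held a GATA site, and those of ranks 59 and 185 held none of the marked sites. GC content ran from 18.4% at rank 59 to 36.3% at rank 185. Among the 20 strongest far distal peaks of all arms, 8 windows held a Sox core.

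The 2 patterns whose share lay furthest below that of peaks at 1 to 10 kb from a start, with 1 sign in all replicates, are shown in a pair of windows each. Forkhead sites, TATTTAC or TGTTTAC on either strand and in capitals here, lay at 15.2% of far distal summits and at 18.2% at 1 to 10 kb, and the windows hold 3 matches each. The first window is chr3R:9126984-9127184 (rank 644) and the second chrX:6614377-6614577 (rank 3129).
forkhead, rank 644: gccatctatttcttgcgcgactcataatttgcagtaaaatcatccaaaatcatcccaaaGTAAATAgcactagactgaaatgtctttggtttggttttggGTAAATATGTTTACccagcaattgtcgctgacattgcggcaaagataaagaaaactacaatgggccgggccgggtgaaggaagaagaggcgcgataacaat
forkhead, rank 3129: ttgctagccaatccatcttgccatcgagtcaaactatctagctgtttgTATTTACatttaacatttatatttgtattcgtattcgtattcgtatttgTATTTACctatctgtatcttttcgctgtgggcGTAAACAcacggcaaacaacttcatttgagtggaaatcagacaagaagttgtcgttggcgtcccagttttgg
In that list the CA repeat CACACA, not shown here, lay at 14.1% and 16.6%, further below than the second pattern. This second pattern, the E-box CATATG, a palindrome bound by basic helix-loop-helix factors, lay at 7.06% and 8.55%. It is in capitals in chr3L:11336467-11336667 (rank 2290) and chr2L:9190368-9190568 (rank 2676), which hold 2 matches each.
CATATG, rank 2290: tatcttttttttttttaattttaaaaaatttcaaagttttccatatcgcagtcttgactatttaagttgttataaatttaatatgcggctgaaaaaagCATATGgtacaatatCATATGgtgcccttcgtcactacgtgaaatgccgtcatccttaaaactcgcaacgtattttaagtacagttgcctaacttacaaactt
CATATG, rank 2676: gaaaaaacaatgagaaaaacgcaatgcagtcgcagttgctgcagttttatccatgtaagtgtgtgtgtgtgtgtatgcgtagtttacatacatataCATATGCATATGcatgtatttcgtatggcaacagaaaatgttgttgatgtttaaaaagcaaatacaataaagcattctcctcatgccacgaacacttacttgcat
In the last window the matches adjoin.

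Far distal peaks reached high signals, but few of them stood at the top of the list. Their median width was 464 bp, with a range of 116 to 660 bp. Peaks at 1 to 10 kb and promoter peaks within 1 kb of a start had the same median. Many far distal peaks had exactly this width, so the equal medians cannot show whether widths differ between the classes. The authors' signal value ran from 172 to 2970 with a median of 270, against 283 for the 2116 peaks at 1 to 10 kb and 352 for the 2477 promoter peaks. Its scale is not stated, so ranks within a list are used from here on. The median rank was 3345 for far distal peaks, 3149 at 1 to 10 kb and 2365 at promoters, where rank 1 is the strongest. Within the strongest regions of each replicate, taken as many as the IDR list holds, the median rank of far distal regions was 3307, 3428 and 3438 in replicates 1, 2 and 3, and that of regions at 1 to 10 kb 3025, 3127 and 3143. The far distal regions stood 282, 301 and 295 ranks lower, a mean of 293 ± 9.71 (SD, n = 3), small beside the whole range of ranks. An exact two-sided sign-flip permutation test over the 3 replicates gave p = 0.25, which is the smallest value this design can give, so no difference between classes of regions can pass 0.05 in these data.

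The far distal share was smaller among the strongest regions than further down, in the IDR list and in each replicate. Among the 100 strongest IDR peaks 4 were far distal (exact 95% interval 1.10 to 9.93%), among the 500 strongest 15 or 3%, among the 1000 strongest 50 or 5%, and among the 2841 strongest 261 or 9.19%. In the replicate lists the strongest regions, again as many as the IDR list holds, included 568, 590 and 551 far distal regions, or 9.99%, 10.4% and 9.70%. The remaining regions of the same lists held 17.3%, 16.6% and 18.1%. These lists were made as input for IDR, and how many of the remaining regions are background was not tested. The strongest regions minus the rest gave a difference in far distal share of −7.29 ± 1.11 percentage points (SD, n = 3), below 0 in 3 of 3 replicates (exact sign-flip permutation test, p = 0.25, the smallest possible).

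**Figure D1:**
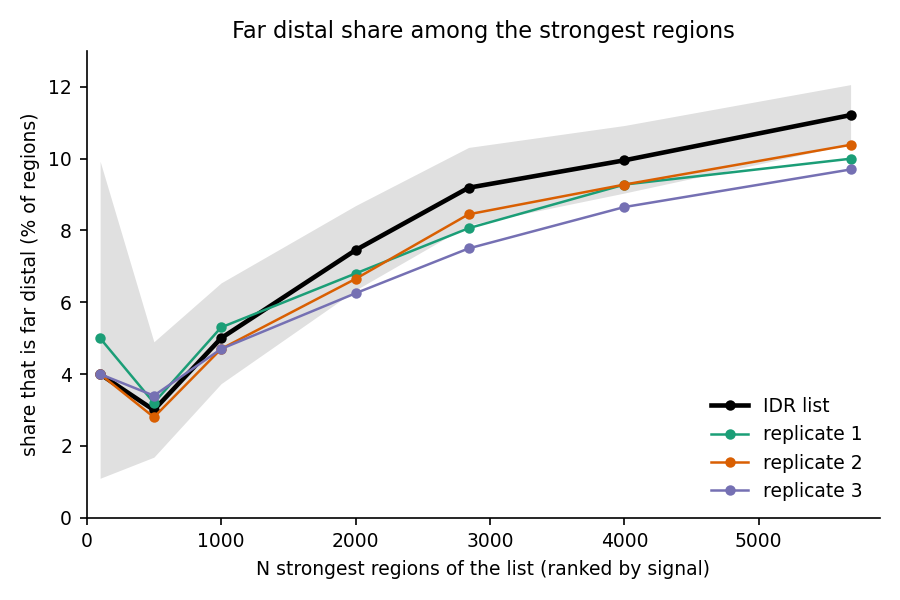
Share of regions that are far distal (y axis, percent) among the N strongest regions (x axis, number of regions) of the IDR list (black) and of each replicate (colours); the grey band is the exact 95% interval of the IDR list and covers counting only. The IDR list goes from 3% among its 500 strongest to 11.2% over the whole list, and the 3 replicates end between 9.70% and 10.4%.

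Far distal peaks were found again in the replicates about as often as peaks at 1 to 10 kb. All 3 replicates overlapped 413 of the 637 with their strongest regions, or 64.8% (exact 95% interval 61.0 to 68.5), beside 71.0% of all IDR peaks, 66.3% at 1 to 10 kb and 76.8% at promoters. A further 129 were overlapped in 2 replicates, 78 in 1 and 17 in none. Single replicates covered 80.7%, 86.0% and 80.5%, a mean of 82.4% ± 3.13 (SD, n = 3). Sharing followed rank: of the 137 far distal peaks at ranks 1 to 1894 all 137 were shared, of the 232 at ranks 1895 to 3788 it was 214 or 92.2%, and of the 268 below that 62 or 23.1%. At 1 to 10 kb the same rank ranges gave 99.7%, 88.5% and 19.6%, and at promoters 99.2%, 89.0% and 29.4%. The IDR list was made from the same replicates, so these shares are a description.

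The IDR list was made from these same replicates, and as a description its 20 strongest far distal peaks ranked high in each of them. The first, at 2R 13035089–13035592 between genes and 11952 bp from the start of CG13323, had a signal of 2970, rank 13 in the IDR list and ranks 18, 12 and 18 of 30000 in replicates 1, 2 and 3. The second, at 2L 1638513–1639058 and 12473 bp upstream of chinmo, which encodes a BTB zinc finger factor of neuronal temporal identity, had a signal of 2873 and ranks 16, 18 and 15. Its companion at 2L 1632619–1633026, 18416 bp from the same start, had a signal of 902 and ranks 613, 605 and 472. So the chinmo upstream sequence held a peak near the very top and one far below it, in each replicate. The third was in the first intron of sbb, a transcriptional corepressor gene also called brakeless, at 2R 18336850–18337509, with a signal of 2634 and ranks 20, 32 and 40. Behind it came the intergenic peak at 3L 10752482–10753035 (signal 2248 and ranks 50, 71 and 51) and one in an intron of simj, which encodes a subunit of the NuRD chromatin remodelling complex (signal 1790 and ranks 74, 119 and 158). All 20 stayed between ranks 12 and 697 in every replicate, and 9 lay between genes and 11 in introns.

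**Figure D2:**
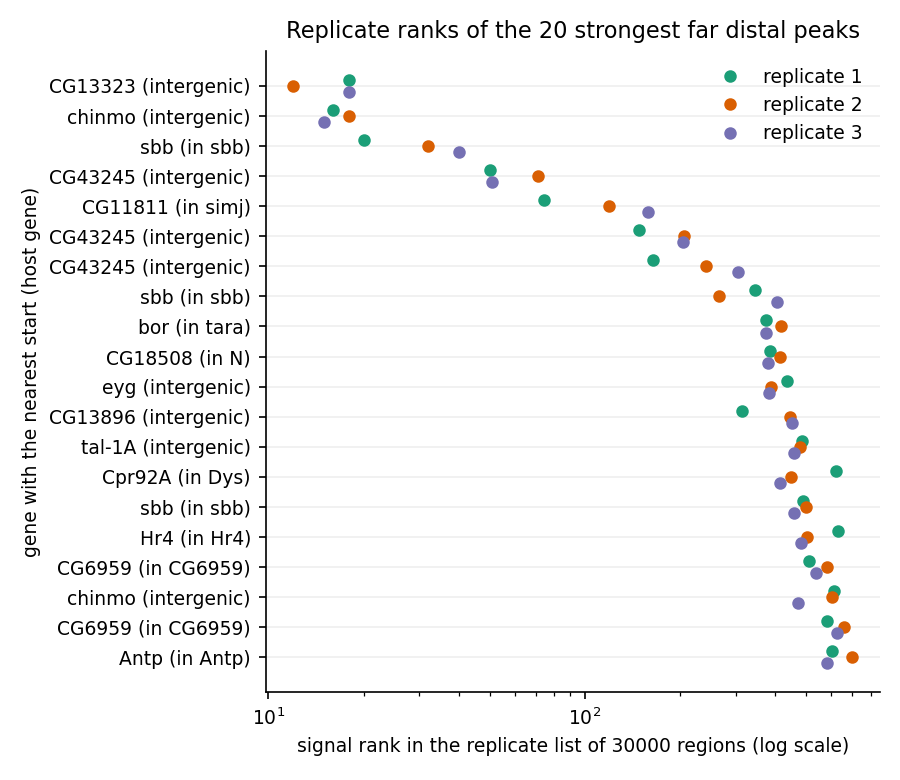
Signal rank in each replicate (x axis, log scale, of 30000 regions) of the 20 strongest far distal peaks (y axis, the gene with the nearest start and, in brackets, the host gene or intergenic); each point is 1 replicate. The first pair, near CG13323 and chinmo, lies at ranks 12 to 18 in every replicate, and no point lies beyond rank 697.

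Several of these peaks sat inside one gene and nearest to the start of another. The peak in an intron of N, the Notch receptor gene, at X 3162334–3162733, lay 10577 bp from the start of CG18508 and had ranks 383, 412 and 379. The peak in an intron of tara, which is linked to the cell cycle and to trithorax group genes, was nearest to bor, and one in intron 26 of Dys, the dystrophin gene, was nearest to the cuticle protein gene Cpr92A. Others were closest to eyg, a Pax family gene (ranks 434, 387 and 381), to tal-1A, which encodes short signalling peptides (ranks 485, 479 and 457), and to Hr4, a nuclear receptor gene of the ecdysone response (ranks 628, 502 and 482). The last of the 20 was in an intron of the Hox gene Antp (ranks 603, 697 and 583), in a stretch that CG46458 also spans. Of these 20 windows, 9 held a GATA site, 8 a Sox core, 3 a GAGA site and 6 none of these, and 8 had a GC content under 30%.

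Of the 637 far distal peaks, 380 or 59.7% lay in introns and 257 or 40.3% between genes. At 1 to 10 kb the intronic share was 73.2%. The strongest regions of the replicates gave 59.9%, 62.2% and 62.1% far distal against 74.5%, 74.3% and 74.4% at 1 to 10 kb, so the difference was −13.01 ± 1.38 percentage points (SD, n = 3), below 0 in 3 of 3 replicates (exact sign-flip permutation p = 0.25). Weak far distal regions gave a similar share. These 4079 regions of the authors' pooled list meet the same rule of position and lie over 500 bp from every IDR peak. None had a signal above 172, and 62.6% of them were intronic. The authors label the pooled list as peaks and background, so weak regions may be background, and how many are bound was not tested. Within the replicates, the intronic share of far distal regions minus that of the weak ones (regions outside the strongest and over 500 bp from them) was −3.41, −0.800 and 0.776 percentage points, with both signs. Few far distal peaks lay in an annotated transposable element: 6 or 0.942%, against 1.495% of the weak far distal regions and 0.440% of all IDR peaks.

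The intronic peaks lay in long introns of long genes. Of the 380, 355 were in an intron of the gene's canonical transcript: 121 in the first, 111 in the second and 123 in a later one, and over these peaks the median intron length was 25492 bp. The median length of the 186 host genes, each counted once, was 53374 bp, against 2166 bp over all coding genes, and a gene must be long for an intron to lie this far from a start. The nearest start was that of the host in 258 cases and of another gene in 122. Between genes, 130 peaks were upstream and 127 downstream of the gene with the nearest start.

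Distances ran from just over 10 kb to 85880 bp, with a median of 15222 bp and a middle range of 12101 to 20862 bp. Over 20 kb lay 180 peaks, over 30 kb 66 and over 50 kb 10. Signal and sharing hardly moved along this range: the median rank was 3307 for the 309 peaks at 10 to 15 kb, 3502 for the 148 at 15 to 20 kb, 3255 for the 114 at 20 to 30 kb and 3396.5 for the 66 beyond, and the share found in all 3 replicates was between 64.4% and 65.5%. Just inside the limit stood a peak in an intron near sdt, 10021 bp from a start (rank 3171), and intergenic peaks near CG42749 (10047 bp, rank 4407) and ND-24L (10079 bp, rank 3244). Just outside it, and therefore not members, were intronic peaks near Hr4 (9982 bp, rank 581), MESR3 (9985 bp, rank 1416) and dan (9996 bp, rank 5028).

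The homeodomain gene hth, which encodes the cofactor that brings Extradenticle into the nucleus, held the 2 farthest peaks. The farthest of all, at 3R 10520437–10520900, lay 85880 bp from any coding start in intron 11 of hth and had ranks 3988, 2527 and 3179. A stronger one at 3R 10537093–10537507, 76959 bp from a start, had a signal of 765 and ranks 636, 666 and 1209. Another pair lay between genes, 72149 and 64008 bp from the start of Cyp12e1, a cytochrome P450 gene, with ranks beyond 4000 in every replicate. The fifth was in an intron of Sema1a, a transmembrane semaphorin gene of axon guidance, 61671 bp from a start, with ranks 14344, 6052 and 6028, so no replicate held it among its strongest regions. So 1 of the 5 farthest peaks was among the 1000 strongest of the IDR list, and the last 3 were at ranks 5548, 4811 and 5591.

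Sequence over 10 kb from every coding start that meets the same rule made up 35.5 Mb, and it held 17.9 far distal peaks per Mb. Sequence at 1 to 10 kb held 47.1 peaks per Mb and promoters 91.3. The density differed between arms, from 25.4 per Mb on 2L (131 peaks) through 20.3 on 3L (174), 18.9 on X (98) and 18.1 on 3R (165) to 9.22 on 2R (67), with 2 peaks on chromosome 4. Weak far distal regions were also sparsest on 2R among the long arms, at 65.1 per Mb against 168 on 2L. Within 5 Mb of the centromeric end of the 5 long arms, 15.9 Mb of such sequence held 45 peaks or 2.82 per Mb, and beyond it 19.4 Mb held 590 or 30.5 per Mb. The weak regions gave 23.8 and 187 per Mb on the same sequence, likewise fewer near the centromeric end. How many reads can be placed in repeat-rich sequence near the centromeres was not tested.

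Many of the far distal peaks stood close to another one. With neighbouring summits joined at up to 5 kb, the 637 peaks formed 441 groups, of which 326 were single peaks and 115 held 2 or more, together 311 peaks or 48.8%. In 33 cases neighbouring peaks overlapped, and some share the same interval with a second summit, so they are not independent regions. The group with most peaks was in the first intron of sbb, 10 peaks at 2R 18326466–18344800, of which 9 were found in all 3 replicates. Their IDR ranks ran from 31 to 4677, so the strongest stood apart: the next were at ranks 320, 478 and 805, and the other 6 beyond 2200.

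The second group lay in rdx, also called roadkill, which encodes the adaptor that sends the Hedgehog effector Ci for degradation. It held 9 peaks at 3R 13998065–14014469, 6 of them in all 3 replicates, with the strongest at signal 797 and ranks 611, 685 and 875. A group of 7 between genes at 3L 771485–784522, nearest to CG13898 and hng3, had its strongest peak at signal 734. Next came 6 peaks in an intron of Snoo, which encodes a Ski and Sno family corepressor of TGF-beta signalling, at 2L 7957002–7966669, and 5 in B4 at 2L 13512209–13515302. The B4 peaks lay within a summit span of 2693 bp, and the 5 ranked 2283 to 4736, so this was a dense group without a strong member. A looser stretch of 3L, from 10734449 to 10786386, held 10 peaks whose nearest start was that of CG43245, where 3 of them were among the 20 strongest members, and 8 were found in all 3 replicates.

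Far distal peaks lay in introns of 186 genes and had the nearest start in 360. Of the host genes 102 held 1 peak, 84 held 2 or more and 16 held 5 or more. The most were in kirre, which encodes an immunoglobulin-type adhesion protein of muscle founder cells: 11 peaks over a gene of 394 kb, 6 of them in all 3 replicates. The kirre peaks were of middling to low strength, with IDR ranks of 1976 to 5649, and 10 of the 11 lay in a single intron of 117679 bp. After kirre came sbb and Snoo with 10 each, rdx and CG42238 with 9, hth with 8, Antp and Sema1a with 7, and CG46458, Fur1 and stx with 6. Fur1 encodes a furin-type protease, and its peaks ranked from 1563 to 5502. The 10 peaks in Snoo ranked from 843 to 5669, and 7 of them stood at rank 2926 or better. In CG42238 the 9 peaks ranked from 1634 to 5623, and 4 were found in all 3 replicates.

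Genes with the nearest start to most peaks overlapped with these: CG43245 had 10, rdx, hth and CG42238 9 each, sbb, CG13898 and Snoo 7, and Antp, Sema1a, Fur1, kirre, ras and hng3 6. The 7 peaks in Antp, a Hox gene of the thorax, fell into a strong pair and a weaker rest. The strongest ranked 603, 697 and 583 in the replicates, and the next, at 3R 6903220–6903618, ranked 844, 1033 and 1019. The other 5 had IDR ranks of 2264 to 4796, and 5 of the 7 were found in all 3 replicates.

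Between gene lists, the share of genes with a far distal peak ran from 0 to 52%. A coding gene could have one if it owns far distal sequence, in its introns or as the nearest start, and 405 of 2338 such genes did, or 17.3%. In a list of developmental transcription factors 26 of 50 such genes had a far distal peak, or 52%. In the signalling list 10 of 24 did (41.7%), in that of adhesion and axon guidance 14 of 38 (36.8%), among Hox genes 3 of 7 and among the other Sox genes 2 of 5. Ion channel, receptor and synapse genes gave 3 of 22 (13.6%), near the 17.3% over all such genes, and cytosolic ribosomal protein genes 0 of 8. No gene of the glial list owned such sequence. Somatic gonad and gut regulators gave 3 of 9 and muscle and heart genes 1 of 7. These counts stand beside the 17.3% as a description, since genes differ in how much far distal sequence they own and the lists were chosen with earlier results of these data known.

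Among the transcription factors, noc, a zinc finger gene, had 4 intergenic peaks, with the strongest at 2L 14504863–14505427 (signal 841 and ranks 493, 686 and 671). The zinc finger gene mamo had its strongest in an intron 42306 bp from a start, at X 13890845–13891252, with ranks 811, 789 and 854. With hth and chinmo these are the 4 of the list with the strongest far distal peaks, and in all 4 the strongest peak ranked 1209 or better in every replicate. The ETS gene pnt, an effector of the EGF receptor, had 5 peaks in a single intron of 24337 bp; its strongest ranked 1989, 959 and 1393.

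In the signalling list, N stood first, followed by vn, which encodes a neuregulin-like ligand of the EGF receptor (2 peaks, the stronger at ranks 537, 843 and 540). The Wnt receptor gene fz had 4 peaks in its introns, with the strongest at 3L 14303882–14304225 and ranks 779, 585 and 749. The Wnt ligand gene wg had 3 intergenic peaks, all shared by the 3 replicates, with the strongest at 2L 7295916–7296275, 11054 bp from its start, and ranks 738, 884 and 834. All 3 wg windows held a GATA site, and 2 of them a Sox core.

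In the adhesion and guidance list the strongest peak was in NetA, a netrin gene, at X 14627413–14627760 (signal 675 and ranks 876, 857 and 1083). The netrin receptor gene unc-5 followed (ranks 846, 1621 and 944), then the immunoglobulin gene hbs (ranks 1056, 1393 and 1578) and Sema1a (ranks 1381, 1859 and 1020). Of the 7 Sema1a peaks 3 were found in all 3 replicates, and the other 4 in 2 or fewer. Among channel and synapse genes, nAChRalpha3, an acetylcholine receptor subunit gene, had a strong peak (ranks 892, 932 and 648), and the cyclic AMP genes dnc and rut had weaker ones, with IDR ranks of 2492 and 5604.

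Genes of the tissues for which Sox100B is known, the somatic gonad and gut list, had 5 far distal peaks. That was 52.5 per Mb of their 0.0952 Mb of far distal sequence, against 17.9 over all such sequence. Weak regions there numbered 252 per Mb, against 115. The lists overlap: fkh and ct are also among the transcription factors, and Fas3 among the adhesion genes. The gut regulator fkh had 3 between genes, the strongest at rank 2451 of the IDR list and ranks 3303, 2645 and 2460 in the replicates. Fas3, an adhesion gene that marks somatic gonad and visceral mesoderm, had 1 at ranks 3672, 4298 and 4497, and ct, which acts in the Malpighian tubules, had 1 at ranks 5016, 6379 and 5057. In the Hox list pb had 1 peak at IDR rank 2497 and Dfd 1 at 3698. Of the Sox genes, Sox21b, of group B, had 1 at ranks 3240, 4290 and 2970, and Sox102F, of group D, had 1 on chromosome 4 at ranks 18681, 4757 and 8597, which only replicate 2 held among its strongest.

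Counted per length, far distal peaks were densest in the signalling, Hox and transcription factor lists, and weak regions were dense there too. The far distal sequence of the developmental transcription factors was 1.04 Mb and held 54.7 peaks per Mb, and that of signalling genes held 60.5 per Mb, against 17.9 over all far distal sequence. Weak far distal regions numbered 277 and 371 per Mb in the same sequence, against 115 over all far distal sequence. Both averages include the sparse sequence near the centromeric ends. Beyond 5 Mb from those ends, far distal sequence of the long arms held 30.5 peaks and 187 weak regions per Mb. How the lists divide between these parts was not tested. Adhesion and guidance genes had 26.3 peaks per Mb, channel and synapse genes 7.35, and ribosomal protein genes none in 0.227 Mb with 26.4 weak regions per Mb. The replicates gave the share of far distal regions that fell in each list, for the strongest and for the weak regions. For the transcription factors it was 8.80%, 8.14% and 8.35% of the strongest and 6.99%, 7.51% and 6.98% of the weak regions, a difference of 1.27 ± 0.599 percentage points (SD, n = 3). For signalling genes the difference was 0.712 ± 0.115 and for Hox genes 0.401 ± 0.297, both above 0 in 3 of 3 replicates. It was below 0 in 3 of 3 for channel and synapse genes, at −0.495 ± 0.285, and for adhesion and guidance genes, at −0.405 ± 0.555. For the adhesion and guidance genes replicate 1 gave only −0.0199, and replicates 2 and 3 gave −0.153 and −1.04. Between the IDR and pooled lists these genes went the other way. They held 5.81% of the far distal peaks, more than their share of the weak far distal regions. For Sox genes the replicate difference was also below 0 in 3 of 3, at −0.302 ± 0.0844, with only 0.176%, 0.339% and 0.363% of the strongest regions. For ribosomal protein genes it was −0.121 ± 0.0201. That list held 0 of the strongest regions in every replicate, so its difference could not lie above 0. The difference had both signs for the somatic gonad and gut list and for muscle and heart genes. Over the 9 lists with such sequence, exact sign-flip permutation tests gave p = 0.25 and adjusted p = 0.321 for each of the 7 lists with 1 sign, and none of the 9 passed 0.05.

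**Figure D3:**
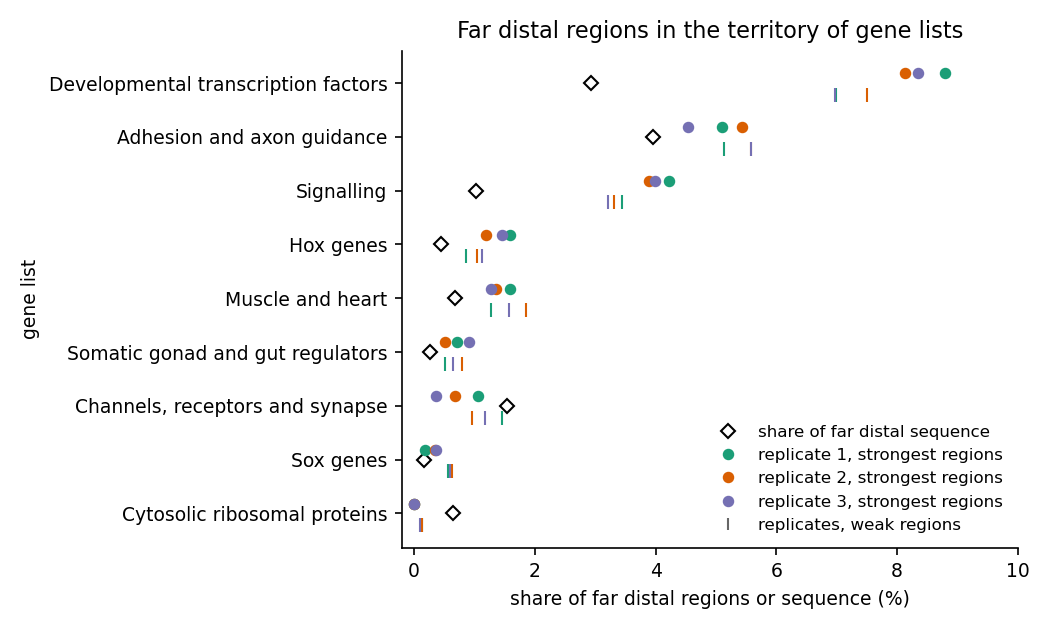
Share of far distal sequence (open diamonds) and of far distal regions (points, strongest regions; ticks, weak regions; colours, replicates) that falls to the genes of each list (y axis); the x axis is in percent. For developmental transcription factors the sequence share is 2.93%, the weak regions lie between 6.98% and 7.51% and the strongest between 8.14% and 8.80%.

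Far distal peaks had nearly the mean GC content of peaks at 1 to 10 kb, and a lower one than weak regions at the same kind of place. In the 201 bp around the summit mean GC was 33.4% (SD 6.50 over 637 windows), 33.4% at 1 to 10 kb, 32.8% at promoters and 36.1% in weak far distal regions. In the replicates the difference to 1 to 10 kb was −0.111, 0.322 and −0.130 percentage points, a mean of 0.0272 ± 0.256 (SD, n = 3) with both signs (exact sign-flip permutation p = 1). The difference to weak far distal regions was −2.74, −2.82 and −3.53, a mean of −3.03 ± 0.434 (exact permutation p = 0.25). The low GC was narrow: within 50 bp of the summit it was 31.3%, and 200 to 400 bp away, on the shoulders, 44.6%. That step of 13.3 percentage points compares with 12.7 at 1 to 10 kb, 11.7 at promoters and 6.32 in weak far distal regions. In replicates 1, 2 and 3 the far distal step was 12.9, 12.8 and 11.9, that at 1 to 10 kb 12.2, 12.4 and 11.2 and that of the weak regions 5.37, 5.85 and 4.52. The far distal step exceeded that at 1 to 10 kb by 0.652 ± 0.1997 and that of weak regions by 7.32 ± 0.297 (SD, n = 3, exact sign-flip permutation p = 0.25 for both). What part base content has in the signal was not tested.

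**Figure D4:**
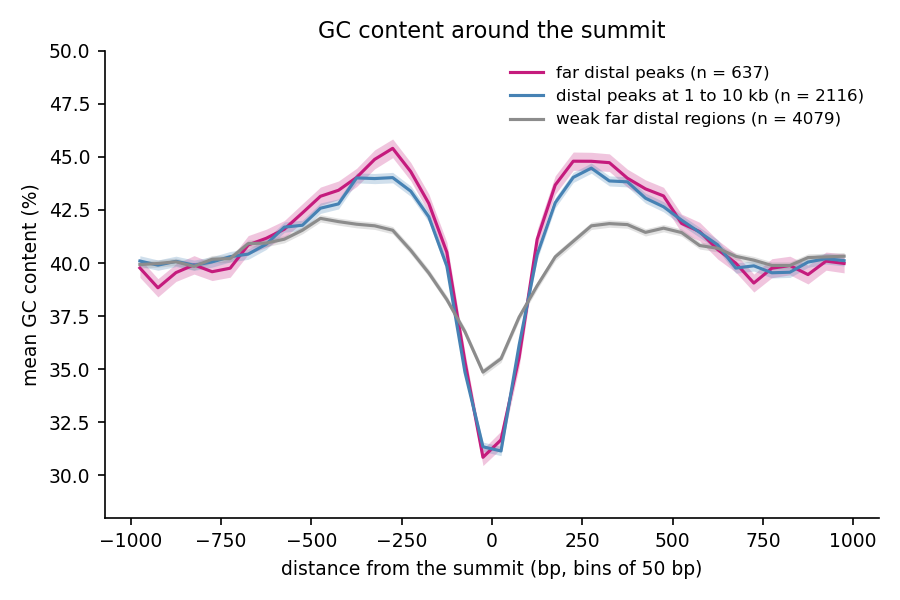
Mean GC content (y axis, percent) in bins of 50 bp against distance from the summit (x axis, bp) for far distal peaks, peaks at 1 to 10 kb and weak far distal regions; shading is the standard error over regions, which share replicates. Far distal peaks and peaks at 1 to 10 kb both dip to about the central 31.3% between high shoulders, 44.6% for the far distal ones, while the weak regions dip less, with a step of 6.32 percentage points.

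The share of far distal peaks with a Sox core was close to that of the regions they were compared with, but its difference to 1 to 10 kb depended on the limits. ACAAAG or ACAATG lay within 100 bp of 168 of the 637 summits, or 26.4% (exact 95% interval 22.99 to 29.98), of 26.6% of summits at 1 to 10 kb, of 25.8% of weak far distal summits and of 24.9% of all IDR summits. In the replicates the share was 23.9%, 27.6% and 26.3% far distal and 26.6%, 26.9% and 26.7% at 1 to 10 kb, a difference of −0.757 ± 1.74 percentage points (SD, n = 3) with both signs (exact sign-flip permutation p = 0.75). The difference was −2.16 with the starts of all annotated genes, −2.27 among the 2841 strongest regions and −1.82 with windows of 50 bp, each below 0 in every replicate, and 2.15 with windows of 200 bp, with both signs. Against the weak regions of the same replicate it was −0.0596 ± 2.32. The same bases in another order were counted for comparison. AAACAG or AAACTG lay at 29.8% of far distal summits, 30.2% of weak ones and 30.7% of all IDR summits, and differed from weak regions by 1.15 ± 0.473 over the replicates. CAAAAG or CAAATG lay at 35.5%, 39.7% and 33.8%, and differed from weak regions by −3.90 ± 0.888, below 0 in 3 of 3. In bins of 50 bp the Sox core was found in 6.44% and 7.22% of far distal peaks on the sides of the summit. The next bins outward had it in 8.01% and 8.32%. At 1 to 10 kb the order was the other way, with 7.61% and 7.89% beside the summit and 7.04% and 7.18% next. How the Sox core varies between bins was not tested. Within the far distal peaks it was found in 51 of the 213 strongest (23.9%), 52 of the next 212 (24.5%) and 65 of the 212 weakest (30.7%).

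GATA sites had the largest mean difference between far distal and weak regions among the 18 patterns. They lay within 100 bp of 275 summits, or 43.2% (exact 95% interval 39.3 to 47.1), of 43.0% at 1 to 10 kb, of 35.4% of weak far distal summits and of 42.1% of all IDR summits. The far distal regions of the replicates had them in 41.7%, 42.5% and 42.5%, and the weak ones in 34.5%, 34.0% and 33.1%, a difference of 8.40 ± 1.06 percentage points (SD, n = 3), higher in 3 of 3 (exact sign-flip permutation p = 0.25, adjusted over 18 patterns 0.321). Within 4 bands of GC content, a comparison chosen after seeing the data, the difference was 5.44 ± 0.867, still above 0 in every replicate. Against 1 to 10 kb it was −0.572 ± 1.11, with both signs. That value moved to 4.002 with a limit of 20 kb, 1.29 with the starts of all annotated genes and −4.63 among the 2841 strongest regions, each with 1 sign in all replicates. The site is bound by GATA zinc finger factors, which in the fly act in gut, blood, amnioserosa and heart. By strength the share was 41.3% in the 213 strongest far distal peaks, 43.9% in the next 212 and 44.3% in the 212 weakest.

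The core GCCAT of sites of the Polycomb recruiter Pho had the largest difference in the other direction. It lay at 24.5% of far distal summits, 24.95% at 1 to 10 kb, 31.0% of weak far distal summits and 23.8% of all IDR summits. The replicate differences to weak regions were −6.22, −9.10 and −8.02 percentage points, a mean of −7.78 ± 1.46 (SD, n = 3, exact permutation p = 0.25, adjusted 0.321), and within GC bands −4.50 ± 1.59. The GAGA site lay at 19.2% of far distal summits, 19.5% of weak ones and 19.2% of all IDR summits. In the replicates it was 1.77 ± 0.706 percentage points more frequent than in weak regions, and within GC bands 3.59 ± 0.802. Of the 18 patterns, 14 differed from weak regions with 1 sign in all 3 replicates, 8 higher and 6 lower. Among the 8, GAGA and AAACAG or AAACTG went the other way between the IDR and pooled lists. There GAGA lay at 19.2% against 19.5% of weak regions, and AAACAG or AAACTG at 29.8% against 30.2%. Within GC bands 11 had 1 sign; the homeodomain site went from 2.48 to 0.120 and the CA repeat from −2.33 to −0.472, both then with both signs.

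Between far distal peaks and peaks at 1 to 10 kb the differences were smaller. Of the 18 patterns 10 had 1 sign in all 3 replicates, 4 higher and 6 lower, all with exact permutation p = 0.25 and adjusted p = 0.45. The largest such difference was for forkhead sites, which lay at 97 far distal summits or 15.2% (exact 95% interval 12.5 to 18.3), 18.2% at 1 to 10 kb, 13.1% of weak far distal summits and 18% of all IDR summits. The replicate shares were 15.3%, 15.1% and 15.4% far distal and 16.5%, 18.6% and 18.6% at 1 to 10 kb, so the mean difference was −2.64 ± 1.24 percentage points (SD, n = 3). This depended on the limits: it was −0.788 with a limit of 5 kb, −0.318 with the starts of all annotated genes and −0.814 among the 2841 strongest regions, each with both signs over the replicates. Within the far distal peaks forkhead sites were found in 18.4% of the intronic and 10.5% of the intergenic summits. The E-box CATATG was found at 45 or 7.06%, against 8.55% at 1 to 10 kb and 8.02% of all, with a replicate difference of −1.63 ± 0.413. CAAAAG or CAAATG differed from 1 to 10 kb by 1.70 ± 0.663 percentage points. This value was 6.63 ± 1.91 among the 2841 strongest regions and 2.72 with a limit of 20 kb, while it had both signs with a limit of 5 kb (1.32), the starts of all annotated genes (0.891) and windows of 50 bp (1.30).

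Rarer patterns rest on few peaks. The site CAGGTAG of Zelda, the pioneer factor of the early embryo, was found at 9 far distal summits or 1.41%, against 0.662% at 1 to 10 kb and 0.721% of all IDR summits, and was higher by 0.767 ± 0.232 percentage points over the replicates. AP-1 sites (TGACTCA or TGAGTCA) were found at 13 or 2.04% (1.55% of all), nuclear receptor sites (AGGTCA) at 28 or 4.40% (3.94% of all), and the Grainyhead site ACCGGTT at 1. The DREF core ATCGAT, a promoter element, lay at 26 or 4.08%, against 9.65% at promoters and 6.93% of all. Homeodomain sites (TAATTA) were found at 19.8% (20.7% of all), the TCF site CTTTGA at 13.3% (13.4%), the Su(H) site TGGGAA of the Notch pathway at 10.8% (9.96%), the E-box CAGCTG at 5.49% (5.98%) and the CA repeat CACACA at 14.1% (14.5%). A match is a stretch of letters, and occupancy by any of these factors was not measured.

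**Figure D5:**
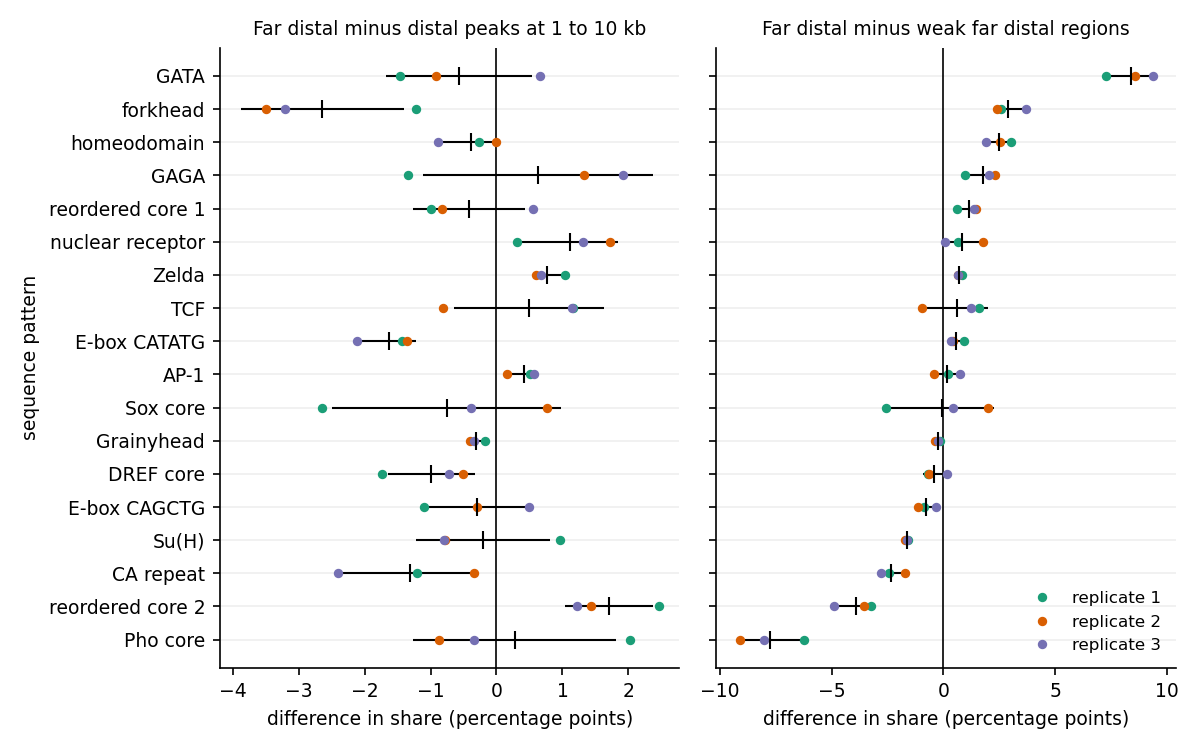
Difference in the share of summit windows with each of 18 sequence patterns (y axis), far distal minus peaks at 1 to 10 kb (left) and far distal minus weak far distal regions (right), in percentage points (x axes, of different range); points are replicates, and black ticks and lines give their mean and SD. GATA sites lie 7.27 to 9.36 points above the weak regions, and on the left forkhead sites lie 1.22 to 3.49 points below 0.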

How the data were processed

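Chromatin was sheared by sonication to 200 to 800 bp, per the labels. The authors deposited, on dm6, lists of regions from each of the 3 replicates and from their pool, and the optimal IDR list. The lists of the replicates and the pool were made as input for IDR per the file headers. That of the pool is labelled as peaks and background. The deposited signal value is the peak caller's own score, its scale unstated, and served to rank the regions of one list. The −log10 q-value and the summit offset were used as deposited. Aligner, peak caller and IDR cutoff were not given in the sources used here. Read depth is unknown.

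Summits were placed against the 13945 protein-coding genes of Ensembl release 115 and the RefSeq release 6 sequence. Regions were compared within each replicate, over its strongest regions, as many as the IDR list holds, by exact two-sided sign-flip permutation tests over the 3 replicates, where the smallest p is 0.25. Replicates are labelled biological, and the same loci recur in them. P-values for patterns and lists were adjusted by the Benjamini-Hochberg method. Overlap means 1 bp or more. The 18 patterns were searched on both strands within 100 bp of the summit, and overlapping matches were kept. Scripts were tested on simulated data.

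The text names hosts and nearest starts of the 20 strongest members, the 10 genes with most members by either assignment and those tied with them, up to 4 genes per list, the 5 fullest groups (summits within 5 kb), the 5 farthest peaks and 3 on each side of the limit. The genes pnt, B4, simj and tara stand beside these as hosts or list members. No annotated gene carried 1 of the list symbols. Members and lists were chosen with earlier results of these data known. Software was pandas 2.3.3, matplotlib 3.10.9, SciPy 1.17.1 and NumPy 2.4.6 under Python 3.11.15. Alternatives were limits of 5 and 20 kb, starts of all annotated genes, the stronger part of each list (2841 regions), overlap of 50%, q under 0.05, windows of 50 and 200 bp, 1 way of assigning genes, each replicate left out, and GC bands.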

Additional observations from a re-analysis of the deposited data

How the results depend on the processing

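The number of far distal peaks was 1279 with a limit of 5 kb, 180 with 20 kb and 261 among the 2841 IDR peaks of highest signal. With the starts of all annotated genes in place of coding starts it was 449, so the other members lay within 10 kb of some annotated start. The IDR list cannot be remade without a replicate; 445 to 462 of the 637 were overlapped by the strongest regions of both others with 1 replicate left out, against 413 by all 3. The lower far distal share among strong regions stood at −8.76 percentage points for the 2841 strongest and at −7.84 to −6.73 with 1 replicate left out. Sharing by all replicates was 42.5% with an overlap of 50%, 88.4% over regions with q under 0.05 and 69.9 to 72.5% with 1 replicate left out, where 2 overlaps are asked for in place of 3. The rank difference to 1 to 10 kb was 320.3 (5 kb), 179.7 (20 kb), 341.3 (starts of all genes), 282.5 (2841 strongest) and 288.5 to 298 with 1 replicate left out. The GC difference to 1 to 10 kb was 0.287 (5 kb), −0.525 (20 kb), 0.639 (2841 strongest), 0.402 (windows of 200 bp) and −0.120 to 0.106 with 1 replicate left out. List genes with a far distal peak numbered 58, but 19 at 20 kb and 34 among the 2841 strongest.

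Patterns with 1 sign in all replicates numbered 7 to 13. Against 1 to 10 kb, the mean of 11 of the 18 changed sign under at least 1 alternative other than leaving out a replicate. Of those with 1 sign at first, Zelda (−0.0582) and AP-1 (−0.261) changed sign at 5 kb, the CA repeat (1.66) and AP-1 (−0.836) among the 2841 strongest, and the nuclear receptor site (−0.171) with windows of 200 bp. Of the others, Su(H) reached 1.78 among the 2841 strongest, and GATA and the Sox core moved as given with their results. Against weak regions, CAGCTG changed sign within GC bands (0.213). The cause was not tested. Region classes were paired within each replicate. No pairing between groups was possible because there is only 1 group, so replicate numbers have no counterpart in another group. Read depth is unknown, and 3 replicates cannot give p under 0.25, so small differences between region classes cannot be called.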

Other observations

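The far distal sequence of muscle and heart genes held 46.1 peaks and 260 weak regions per Mb, with all 11 peaks in kirre, also an adhesion list gene. That of the somatic gonad and gut regulators held 52.5 peaks and 252 weak regions per Mb, and that of Hox genes 56.8 and 240. The X-linked gene stx held 6 far distal peaks in introns, with IDR ranks of 2063 to 5510, of which 1 was found in all 3 replicates. The share of far distal peaks with a Sox core was 34.3% on 2R (23 of 67) and 17.3% on X (17 of 98), with the other long arms between 26.0% and 29.1%; arms are not replicates, and this difference was not tested.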
